A study of Saccharomyces cerevisiae with 6 samples.

Results

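The small subunit (SSU) processome is the assembly of proteins and U3 snoRNA that forms on the nascent pre-rRNA in the nucleolus, where it folds, modifies and cleaves the precursor of 18S rRNA, the RNA of the small ribosomal subunit. The mRNAs of its protein factors were taken from the list of 46 gene names, by name in the deposited table of features. Of these, 45 were found among the 8898 features, and *DBP4* was skipped because the table does not hold that name. The rule for picking them uses names and no measured value, but the list was chosen with earlier results of these data known. RNA-seq was performed on rRNA-depleted total RNA of haploid *S. cerevisiae* cells of strain BY4742, labelled MATα with the alleles *ura3∆0*, *leu2∆0* and *his3∆1*. All cells lacked the genomic *RRP4* gene (*rrp4∆::NEO*) and carried a centromeric *LEU2* plasmid (pRS315) with either *RRP4-2xMyc* (control *RRP4* cells) or *rrp4-G226D-2xMyc* (*rrp4-G226D* cells) as the sole source of Rrp4, a cap subunit of the RNA exosome, the nuclear and cytoplasmic 3′–5′ RNase complex. Cells of both genotypes were grown in medium without leucine at 37°C for 5 h, and 3 libraries were made per genotype from cultures described as independent biological replicates.

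Total counts were between 7663545 and 12181979 per library, and the members received between 220 and 10019 reads each in any library, so none rests on few reads. Levels are given as normalized counts, which are CPM values (reads scaled to the library's depth) with edgeR's TMM factors applied, and a change is the log2 fold change of *rrp4-G226D* against *RRP4* from edgeR's quasi-likelihood test, with the p-value adjusted by Benjamini-Hochberg over all 7631 features tested. A transcript counts as increased or decreased when it differs by 1.5-fold or more (0.585 on the log2 scale) with its adjusted p under 0.05, and as higher or lower when only the adjusted p is under 0.05. These are relative levels in bulk RNA, in which fewer molecules per cell and a larger pool of other RNA cannot be told apart. *RRP4* reads, which come from the plasmid copy, were at 165 to 178 normalized counts in the *RRP4* libraries and 281 to 302 in those of *rrp4-G226D*, and the counts do not tell the alleles apart. The labelled mating type was visible in the α-pheromone gene *MF(ALPHA)1* (1062 to 1483) and the a-factor receptor gene *STE3* (110 to 157), beside the a-cell genes *MFA1* and *MFA2* (at most 2.97), *STE2* and *BAR1* (at most 13.2) and *STE6* (31.5 to 49.4), while *MF(ALPHA)2* was at 4.30 to 5.83. The strain list of the study, read here from page images, gives MATa and a further *lys2* deletion for the *rrp4∆* strain, which the sample labels do not. *URA3* had no reads, *HIS3*, of which the labelled allele removes only a part, had 62.2 to 92.3, and *LEU2*, carried by the plasmid, had 1348 to 2161.

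The processome is built from preassembled modules. UtpA binds the 5′ external transcribed spacer first, and UtpB and U3 with its own proteins follow. The Mpp10 complex, UtpC, the GTPase Bms1 with its partner Rcl1, RNA helicases and rRNA-modifying enzymes join as transcription proceeds. In yeast the genes of these factors belong to the ribosome biogenesis regulon, whose promoters often hold the PAC and RRPE elements and whose transcripts are known to follow growth and nutrients.

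SSU processome mRNAs were, on balance, slightly higher in *rrp4-G226D* cells. Of the 45 members, 4 were increased (8.89%) and 0 decreased. The increased mRNAs were *UTP14*, *BMS1*, *UTP20* and *UTP25*, each by 1.51- to 1.56-fold. Over all features tested, 12.7% were increased and 11.3% decreased, and among the 5982 open reading frames tested 5.38% were increased and 13.0% decreased. Without the fold requirement, 21 members were higher (46.7%), 3 were lower (6.67%) and 21 did not pass, against 28.6% higher and 31.0% lower over all features and 23.1% and 37.5% over open reading frames. These counts of higher and lower members were 44 and 0 with library size as the only scaling, 29 and 2 with TMM over open reading frames, and 13 and 3 without *RRP4* replicate 3. In these fits the median of all features was 0.46, 0.09 and 0.01, and the shares of all features higher or lower were not counted. The median change of the members was 0.18 (quartiles 0.02 and 0.25), beside 0.01 over all features and −0.07 over open reading frames, and the changes ran from −0.39 for *EMG1* to 0.64 for *UTP14*. The 3 libraries of the genotypes did not overlap in 17 members higher in *rrp4-G226D* (37.8%, against 31.3% of all features and 25.4% of open reading frames) and in 3 members lower there (6.67%, against 32.8% and 39.7%).

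These counts rested on where the threshold falls and on a library. In *rrp4-G226D* replicate 3, which has the highest total count, 44 of the 45 members had their highest level of the 3 *rrp4-G226D* libraries (97.8%, against 31.6% of all features tested). Among the *RRP4* libraries replicate 1 held the highest level for 39 members, and the share of all features was not counted there. The median deviation of the members from the *RRP4* mean, on the log2 scale, was 0.07, −0.02 and −0.06 in the *RRP4* libraries and 0.11, 0.06 and 0.28 in the *rrp4-G226D* libraries, so that *RRP4* replicate 1 lay above *rrp4-G226D* replicate 2. Without *rrp4-G226D* replicate 3 the number increased was 0, 12 members were higher and 5 lower, and the median was 0.09. Of the 7678 features tested in that fit 898 were increased and 842 decreased, and their median was 0.0005. The shares of all features higher or lower were not counted there. All 4 increased members then lay between 0.53 and 0.56, just under 1.5-fold, each with an adjusted p of at most 1.59e-07. Whether depth or the state of that culture has a part in this was not tested.

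**Figure D1:**
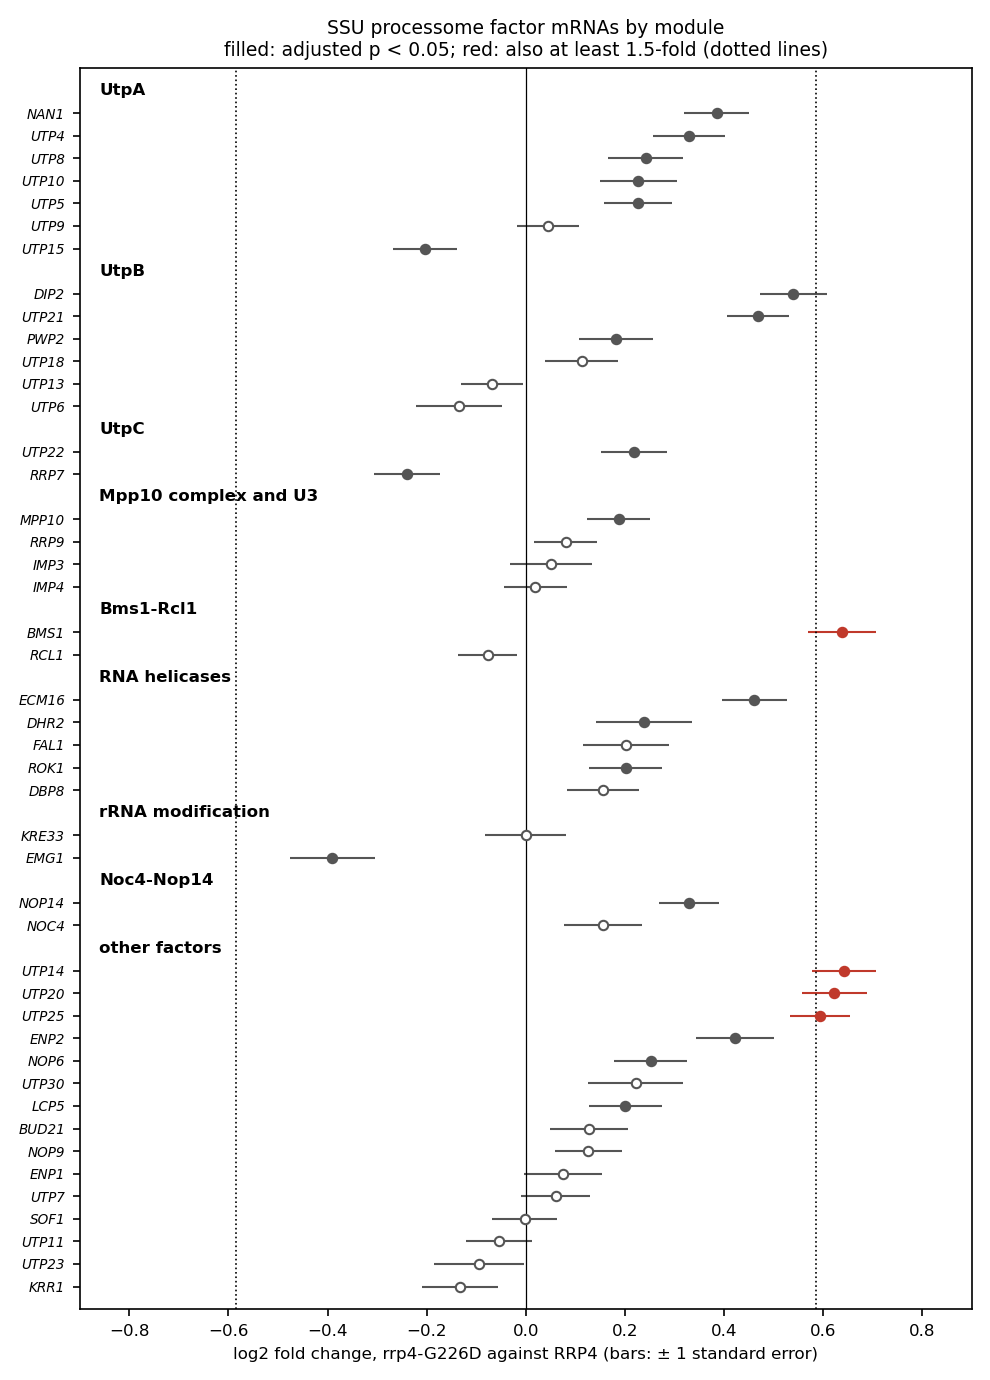
The log2 fold change (x axis, *rrp4-G226D* against *RRP4*) of each of the 45 members, grouped by module, with bars of 1 standard error, filled points at an adjusted p below 0.05, red points for the 4 increased members and dotted lines at 1.5-fold. With TMM scaling, 35 members lie right of 0 and 10 left of it. With library size as the only scaling, all 45 lie right of it, and the median of all features is 0.46.

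*UTP14* (YML093W, chromosome XIII, 83090 to 85789) encodes the processome protein that binds and activates the helicase Dhr1. Its levels were 222, 219 and 213 normalized counts in the *RRP4* libraries and 328, 319 and 373 in those of *rrp4-G226D*, so the genotypes lay well apart. The change was 0.64 (SE, standard error, 0.065, edgeR adjusted p = 1.64e-07), close to those of *BMS1* and *UTP20*, and which of the 3 was largest changed with the library left out. *BMS1* (YPL217C, chromosome XVI, 139620 to 143171), which encodes the GTPase of the processome, was at 188, 192 and 171 in *RRP4* and 263, 283 and 312 in *rrp4-G226D* libraries. The gap between the genotypes was again wider than the spread within either, with a change of 0.64 (SE 0.069, edgeR adjusted p = 3.70e-07).

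*UTP20* (YBL004W, chromosome II, 227636 to 235117) encodes a very large protein of helical repeats and has the longest coding sequence of the members, 7482 bp. Its levels were 456, 417 and 422 normalized counts in the *RRP4* libraries and 630, 649 and 714 in those of *rrp4-G226D*, a change of 0.62 (SE 0.065, edgeR adjusted p = 2.61e-07). *UTP25* (YIL091C, chromosome IX, 191030 to 193195), which encodes a protein related to DEAD-box helicases, was at 152, 149 and 151 in *RRP4* and 215, 222 and 243 in *rrp4-G226D* libraries. The *RRP4* libraries were almost level, and the lowest *rrp4-G226D* library lay far above the highest of them. The change of *UTP25* was 0.59 (SE 0.060, edgeR adjusted p = 1.88e-07), and it fell to 0.58, under 1.5-fold, without *RRP4* replicate 2. *DIP2* (YLR129W, chromosome XII, 399657 to 402488), a β-propeller subunit of UtpB, followed just under the threshold. It was at 251, 241 and 239 in *RRP4* and 325, 347 and 390 in *rrp4-G226D* libraries, with no overlap, and its change was 0.54 (SE 0.067, edgeR adjusted p = 2.00e-06). Without *rrp4-G226D* replicate 1 it passed 1.5-fold, at 0.59.

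On the other side, *EMG1* (YLR186W, chromosome XII, 523632 to 524390), which encodes the methyltransferase of a pseudouridine in 18S rRNA, had the lowest change. Its levels were 97.8, 97.2 and 86.7 normalized counts in the *RRP4* libraries and 80.4, 60.8 and 74.2 in those of *rrp4-G226D*, a change of −0.39 (SE 0.086, edgeR adjusted p = 0.000810). The gap between the nearest libraries of the genotypes was small beside the spread in *rrp4-G226D*. *RRP7* (YCL031C, chromosome III, 64675 to 65568), a subunit of UtpC, was at 160, 147 and 140 in *RRP4* and 128, 116 and 134 in *rrp4-G226D* libraries (change −0.24, SE 0.067, edgeR adjusted p = 0.00497). *UTP15* (YMR093W, chromosome XIII, 454015 to 455556), a subunit of UtpA, was at 183, 177 and 163 in *RRP4* and 143, 149 and 162 in *rrp4-G226D* libraries (change −0.20, SE 0.064, edgeR adjusted p = 0.0117). For *UTP15* the nearest libraries of the genotypes almost touched, and its adjusted p was 0.0633 without *RRP4* replicate 1 and 0.0535 without *RRP4* replicate 2. With library size as the only scaling, all 3 turned positive, at 0.06 for *EMG1*, 0.21 for *RRP7* and 0.25 for *UTP15*, a setting that moves the median of all features to 0.46.

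**Figure D2:**
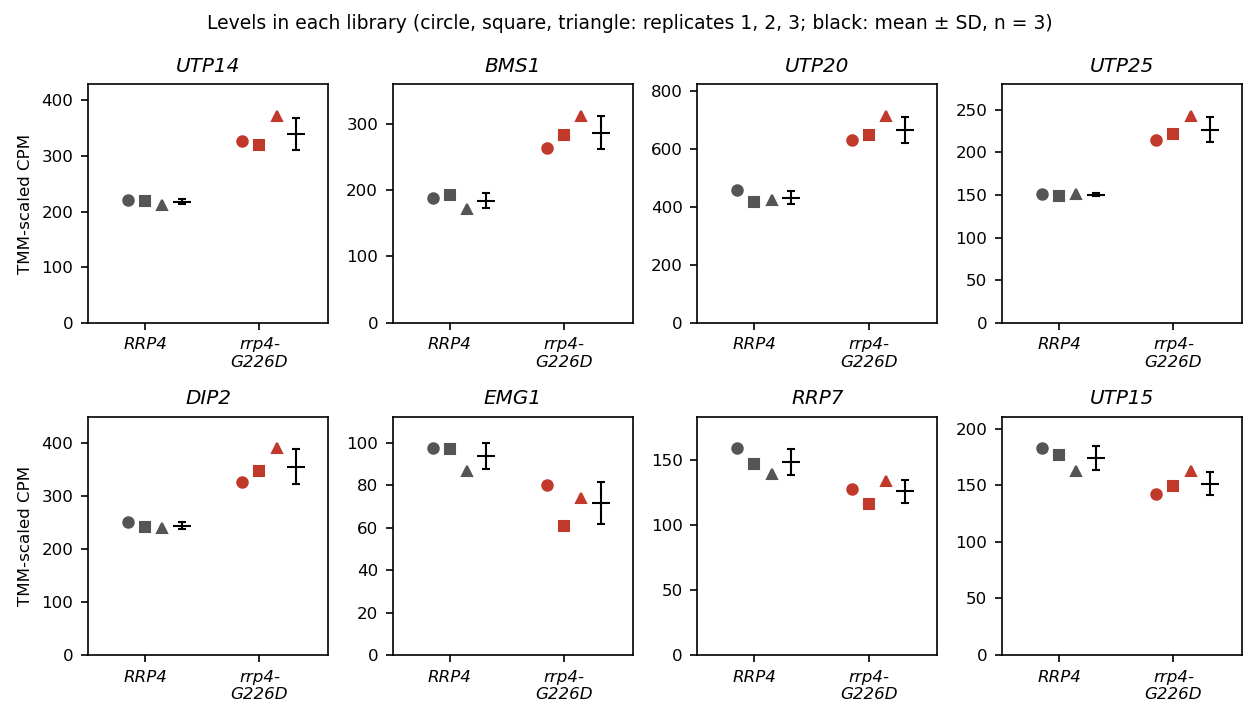
Normalized counts (y axis, TMM-scaled CPM, from 0) of the 4 increased members, *DIP2* and the 3 lower members in each library, with replicates 1, 2 and 3 as circle, square and triangle and the mean ± SD (n = 3) in black. With this scaling the genotypes do not overlap in any of the 8 panels, and *UTP15* comes closest, with 163 in the lowest *RRP4* library and 162 in the highest *rrp4-G226D* library; the lower levels of *EMG1*, *RRP7* and *UTP15* turn into higher levels with library size as the only scaling.

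Members that passed in opposite directions stood together in UtpA and UtpC, and no difference between members was tested. In UtpA, which starts the assembly, 5 of the 7 mRNAs were higher. *NAN1*, also known as *UTP17*, went from 335 ± 17.7 to 437 ± 31.0 normalized counts (SD, n = 3; change 0.38), *UTP4* from 184 ± 17.4 to 231 ± 18.8 (0.33), and *UTP8*, *UTP5* and *UTP10* changed by 0.24, 0.23 and 0.23. *UTP9* did not pass the test (0.05, 95% interval −0.09 to 0.18), and *UTP15* was lower, as given above. In UtpB, *DIP2*, *UTP21* (192 ± 10.2 to 266 ± 15.9, change 0.47) and the scaffold subunit *PWP2* (0.18, adjusted p = 0.0435, edgeR) were higher. *UTP18* (0.11), *UTP13* (−0.07) and *UTP6* (−0.13) did not pass. The members of UtpC went in opposite directions, with *UTP22* at 377 ± 18 and 438 ± 34.4 (0.22, adjusted p = 0.00884, edgeR) and *RRP7* lower.

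In the Mpp10 complex, which helps U3 pair with the pre-rRNA, *MPP10* was higher (143 ± 9.48 to 163 ± 8.98, change 0.19, adjusted p = 0.0175, edgeR), and *IMP3* (0.05), *IMP4* (0.02) and the U3-specific protein gene *RRP9* (0.08) did not pass. The partner of *BMS1*, *RCL1*, was at 123 ± 7.63 and 117 ± 1.32, a change of −0.08 with an interval of −0.20 to 0.05. The interval of *BMS1* was 0.49 to 0.78 and lay above that of *RCL1*, but the difference between the 2 partners was not tested. Their coding lengths are 3552 bp (*BMS1*) and 1104 bp (*RCL1*), and changes varied with length, as given below. The 5 helicase genes measured all had changes above 0, and 3 passed. Of these, *ECM16*, which encodes the DEAH-box helicase Dhr1 that releases U3, changed most (170 ± 6.57 to 234 ± 18.6, change 0.46, adjusted p = 8.54e-06, edgeR). *DHR2* (0.24) and *ROK1* (0.20), whose product acts on the snoRNA snR30, were higher, and *FAL1* (0.20, adjusted p = 0.0517) and *DBP8* (0.16, adjusted p = 0.0753) did not pass. The helicase gene that the list calls *DBP4* stands in the table as *HCA4* (YJL033W) and was looked up after the list had been applied. It was at 171 ± 7.81 and 223 ± 23.3 normalized counts, a change of 0.38 (adjusted p = 0.000173, edgeR).

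Of the rRNA-modifying enzymes, the acetyltransferase gene *KRE33* was at 214 ± 21.0 and 214 ± 26.0 (interval of the change −0.17 to 0.17) beside the lower *EMG1*, and with library size as the only scaling its change was 0.45 (edgeR adjusted p = 9.46e-06). *NOP14* was higher (153 ± 2.20 to 192 ± 13.2, change 0.33, adjusted p = 0.000164, edgeR), while its partner *NOC4* did not pass (0.16). Among the 15 other factors, *ENP2*, a β-propeller protein, was higher by 0.42 (106 ± 6.97 to 142 ± 17.2, adjusted p = 0.000163, edgeR), as were the RNA-binding protein gene *NOP6* (0.25) and *LCP5* (0.20). *UTP30* (0.22, adjusted p = 0.0544), *BUD21* (0.13), *NOP9* (0.13), *ENP1* (0.08), *UTP7* (0.06), *SOF1* (0.00), *UTP11* (−0.05), *UTP23* (−0.09) and *KRR1* (−0.13) did not pass. For 37 of the 41 members that were neither increased nor decreased, the 95% interval of the change lay within 1.5-fold in both directions. The other 4 reached past it on the higher side, and none on the lower side.

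Longer members tended to have higher changes, apart from the shortest. Across the 45 members Spearman's rho between coding length, from 552 bp (*IMP3*) to 7482 bp (*UTP20*), and the log2 fold change was 0.622, and it was between 0.567 and 0.686 when each library was left out. The 21 higher members had a median coding length of 2433 bp, the 21 that did not pass 1323 bp and the 3 lower ones 894 bp. The relation was also present outside the processome. Across the 5734 open reading frames with a length in the annotation rho was 0.372 (0.357 without ribosomal protein genes), across 61 assembly factors of the large subunit it was 0.478, and across 24 further processome proteins 0.313. Open reading frames that were higher, did not pass or were lower had median annotated lengths of 2016, 1272 and 966 bp. The annotated length is the span of the gene with any intron, so outside the members, which have no intron, it can exceed the coding length. In the length class of 3000 bp and more, the median change was 0.34 over 6 members and 0.26 over 524 open reading frames, and in the class from 750 to under 1500 bp it was −0.03 over 14 members and −0.19 over 2078 open reading frames. The 3 members under 750 bp, *IMP3*, *BUD21* and *NOP6*, went against this order, with a median of 0.13 beside −0.27 over 1420 open reading frames. Genes share libraries and are not independent replicates, so rho is a description of these 6 libraries. Differences in RNA fragmentation between the libraries were not tested.

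**Figure D3:**
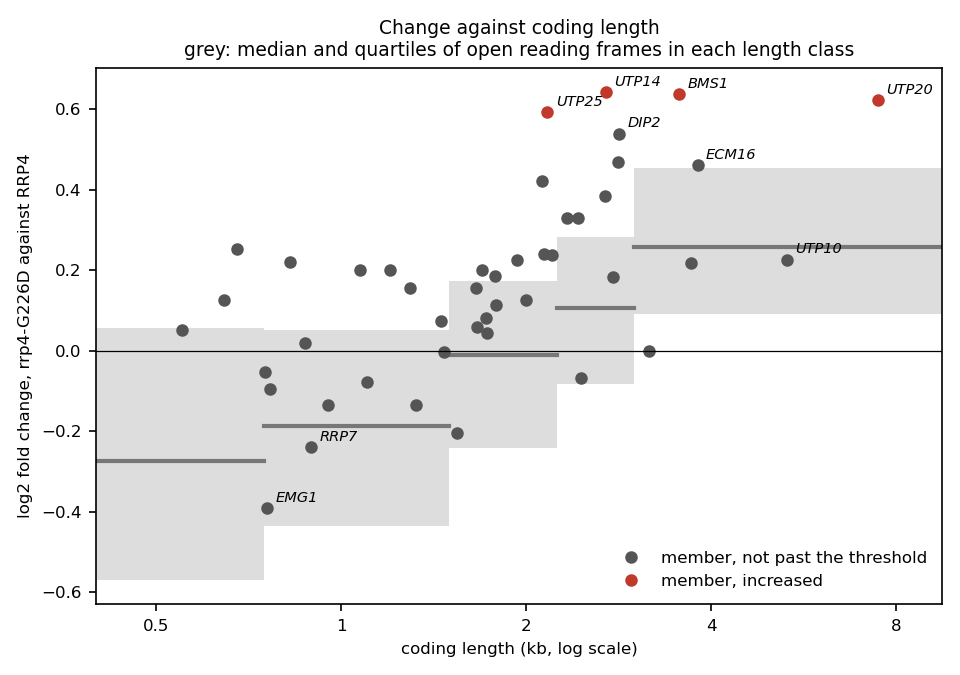
The log2 fold change (y axis) against coding length (x axis, kb, log scale) of the 45 members, the 4 increased ones in red. In grey are the median and quartiles of open reading frames in 5 classes of annotated length, which includes introns. The 4 increased members are 2166 bp or longer, and the grey medians climb from −0.27 under 750 bp to 0.26 at 3000 bp and above.

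The levels of the members, divided by coding length so that genes can be compared, spanned 6.54-fold in *RRP4* cells, from 25.5 ± 4.20 normalized counts per kb for *DHR2* to 166 ± 11.3 for *RRP7* (SD, n = 3), with a median of 81.5. *DHR2*, a DEAH-box helicase gene, was at 65.7, 55.9 and 47.1 normalized counts in the *RRP4* libraries and 65.6, 60.9 and 73.0 in those of *rrp4-G226D*, so the libraries of the genotypes overlapped although the test gave a higher level (adjusted p = 0.0426, edgeR). After *RRP7* came *BUD21* (157 ± 17.2 per kb), *RRP9* (132 ± 5.71) and *NOP6* (125 ± 4.82), and the spread of *BUD21* reached that of *RRP7*. At the low end *DHR2* was followed by *ROK1* (34.8 ± 1.20), *FAL1* (35.4 ± 3.07) and *UTP30* (38.3 ± 1.14), of which *ROK1* and *FAL1* differed by less than their spread. The median member stood at percentile 66.4 of the levels per kb of 5734 open reading frames, whose annotated lengths include introns, and the range was from 22.3 to 84.2. Within modules the levels spanned 1.70-fold in UtpA (*UTP10* to *NAN1*), 1.53-fold in UtpB (*UTP18* to *PWP2*) and 1.65-fold in the Mpp10 group with *RRP9*. In *rrp4-G226D* cells the span was 1.90-fold in UtpA and 2.30-fold in UtpB. For *BMS1* and *RCL1* the 2.16-fold difference in *RRP4* cells narrowed to 1.32-fold. The order of the members was largely kept, with Spearman's rho of 0.879 between the genotypes.

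The promoters of the members share sequence elements that the choice of genes did not use. PAC and RRPE were searched because they are known from ribosome biogenesis genes, so their presence here is no independent finding. In the window from 250 bases before to 50 bases after the start codon, read from the R64 genome with the RefSeq annotation, the core of PAC, searched as GATGAG or, for the other strand, as CTCATC, occurred in 40 of 45 members (88.9%), against 20.4% of 6001 protein-coding genes. The core of RRPE, searched as AAAAATTT or, for the other strand, as AAATTTTT, occurred in 34 (75.6%), against 14.1%. Both were present in 31 members (68.9%, against 5.63%), and *EMG1* and *UTP22* had neither. PAC matches before the start codon began a median of 105 bases upstream of it (quartiles 82 and 128) and RRPE matches 129 bases upstream (quartiles 116 and 147). RRPE matches on both strands can overlap each other, as in *UTP25*, and windows of neighboring genes can overlap too. The shares were like those of other assembly factors, with PAC in 90.2% and RRPE in 82% of 61 large subunit factors, while each was found in 12.5% of 56 ribosomal protein genes of the small subunit. A match of letters is a description and not a binding site.

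Stretches of 30 bases on the coding strand, 5′ to 3′, are given for the 4 increased members and *DIP2*, which move most upward, and for the lower members *RRP7* and *UTP15*, with PAC and RRPE cores in capitals. *EMG1* has no match to show.
*UTP14* (chrXIII:82974-83003, plus strand): aAAATTTTTcaaattcctatggcGATGAGc
*BMS1* (chrXVI:143267-143296, minus strand): aatgAAAAATTTtcaaggcGATGAGctgaa
*UTP20* (chrII:227447-227476, plus strand): ttccgaAAATTTTTaccGATGAGcattgaa
*UTP25* (chrIX:193302-193331, minus strand): ccatgatctgAAAAATTTTTccttcgcaat
*DIP2* (chrXII:399525-399554, plus strand): aacgcGATGAGcagtggaAAATTTTTcaga
*RRP7* (chrIII:65683-65712, minus strand): gttaaattggaAAATTTTTcactttttggt
*UTP15* (chrXIII:453881-453910, plus strand): gaAAATTTTTggaataactgAAAAATTTtg
In *UTP14*, *BMS1*, *UTP20* and *DIP2* both elements lie within these 30 bases, the PAC of *UTP25* lies outside its stretch, and *RRP7* and *UTP15* have RRPE only. Of the 5 members without PAC, 3 are the lower members *EMG1*, *RRP7* and *UTP15*, and the others are *UTP22* and *UTP30*, while none of the 40 members with PAC was lower. The 4 increased members have both elements. The split was seen after the values were known and was not tested. The 31 members with both had a median change of 0.18 and ran from −0.13 to 0.64, the 9 with PAC only had 0.19, and the 3 with RRPE only, of which 2 are *RRP7* and *UTP15*, had −0.20, and *EMG1* and *UTP22*, with neither, were at −0.39 and 0.22. The 3 lower members turn positive when only library size is scaled for, as given above.

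**Figure D4:**
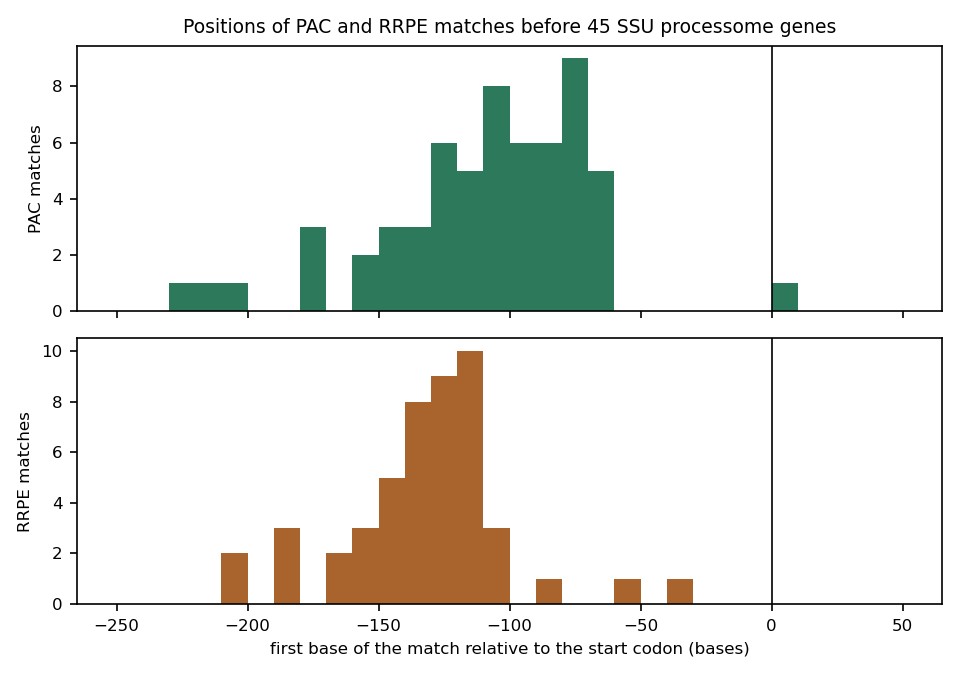
Number of PAC (top) and RRPE (bottom) matches of the 45 members (y axes) in bins of 10 bases by the position of the first base of the match relative to the start codon (x axis). There are 60 PAC and 48 RRPE matches, and all but 1 PAC match begin before the start codon.

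Other genes of the pathway were examined for the same comparison. Of 24 further proteins of the SSU processome, 2 were increased (8.33%, against 12.7% of all features) and 0 decreased (against 11.3%). Among these 24, 12 were higher and 3 lower, against 28.6% and 31.0% of all features, and the median change was 0.17. Their median was 0.07 without *rrp4-G226D* replicate 3. With library size as the only scaling it was 0.62 and 12 were increased, beside 2880 of all 7631 features. The increased mRNAs were *SAS10*, known as *UTP3*, at 61.5, 58.2 and 61.6 normalized counts in the *RRP4* libraries and 93.3, 99.9 and 109 in those of *rrp4-G226D* (0.74, adjusted p = 7.44e-08, edgeR), and *PXR1*, which encodes a cofactor of the helicase Prp43 (0.84, adjusted p = 1.39e-06, edgeR). Both stayed increased without *rrp4-G226D* replicate 3, at 0.67 and 0.72. The 13 factors that mature the 40S precursor after the processome had a median of 0.24, with 8 higher (61.5%), 2 lower (15.4%) and none past 1.5-fold. That median was 0.12 without *rrp4-G226D* replicate 3. With library size only 8 of the 13 were increased, again beside 2880 of all 7631 features. Among 61 large subunit assembly factors the median was 0.09, with *MAK16* and *RRP14* increased (3.28%) and 0 decreased. Of these 61, 26 were higher (42.6%) and 5 lower (8.20%), shares close to the 46.7% and 6.67% of the members. Without *rrp4-G226D* replicate 3 only *RRP14* was increased and the median was 0.03. The number increased of these 61 was 28 with library size only and 6 with TMM over open reading frames, beside 2880 and 1171 of all 7631 features. Of 7 regulators of the transcription of ribosome genes, *IFH1*, a coactivator at ribosomal protein genes, was increased, with 309 to 329 normalized counts in the *RRP4* libraries and 488 to 580 in those of *rrp4-G226D* (0.72, adjusted p = 7.75e-08, edgeR). The repressor gene *TOD6* was also higher (0.41), as were *FHL1* (0.48) and *SFP1* (0.38). With *IFH1* counted, 4 of the 7 were higher (57.1%, against 28.6% of all features) and 0 lower. *DOT6* (0.12), *SCH9* (0.10) and *STB3* (0.01) did not pass.

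Lower levels were found for U3 and for the ribosomal protein mRNAs. The U3 snoRNA genes *snR17a* and *snR17b*, whose products are nearly identical so that their split of reads is uncertain, were decreased. *snR17a* was at 34649, 27153 and 27169 normalized counts in the *RRP4* libraries and 9181, 7191 and 8780 in those of *rrp4-G226D* (−1.82, adjusted p = 9.72e-10, edgeR), and *snR17b* changed by −1.45. *snR30*, a snoRNA needed for 18S processing, was also decreased (−1.64), *snR128* (U14) was lower by less than 1.5-fold (−0.55, adjusted p = 0.00250, edgeR), and *snR10*, with at most 47 reads in a library, did not pass. All 3 decreased snoRNAs stayed so with library size as the only scaling, at −1.37 for *snR17a*, −0.995 for *snR17b* and −1.18 for *snR30*. Of the core proteins that bind U3, *SNU13* was decreased (−0.70), *NOP1* (−0.57) and *NOP58* (−0.21) were lower and *NOP56* did not pass, and the median of these 4 turned from −0.39 to 0.06 with library size only. All 56 small subunit ribosomal protein mRNAs were lower (against 31.0% of all features), and 51 of them were decreased (91.1%, against 11.3%). Their median was −0.81, which was −0.36 with 3 decreased under library size only. Their median deviation from the *RRP4* mean was −0.71, −0.91 and −0.82 in *rrp4-G226D* replicates 1, 2 and 3, so for them replicate 3 lay between the others.

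**Figure D5:**
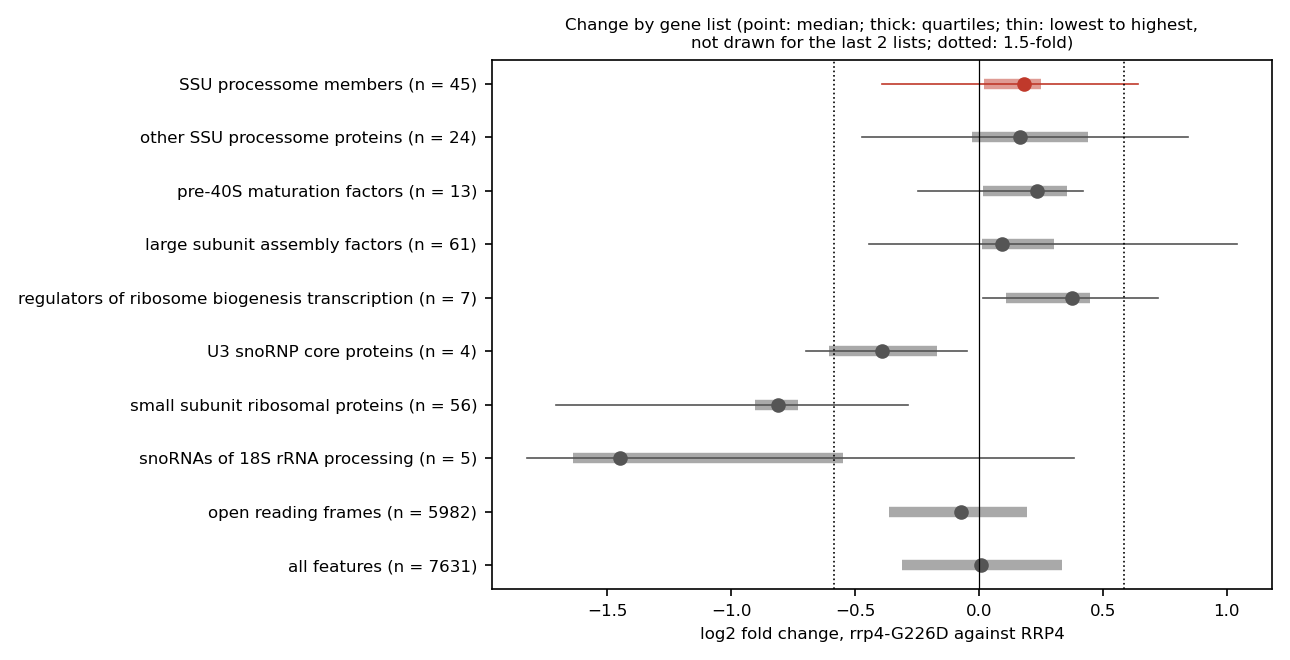
The log2 fold change (x axis) of 8 gene lists and of open reading frames and all features, as median (point), quartiles (thick line) and lowest to highest value (thin line, not drawn for the last 2), with dotted lines at 1.5-fold. The SSU processome members (red, n = 45) have a median of 0.18 and the small subunit ribosomal protein genes −0.81; with library size as the only scaling these are 0.63 and −0.36, and the U3 snoRNP core proteins move from −0.39 to 0.06.

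The members together took 0.600% ± 0.0106 of all counts in the *RRP4* libraries and 0.971% ± 0.0603 in those of *rrp4-G226D* (SD, n = 3), and 0.829% ± 0.0394 and 1.17% ± 0.0793 of the counts on open reading frames. The genotypes did not overlap in either share, but with 3 libraries per genotype an exact permutation test (two-sided) cannot give a p under 0.1. In TMM-scaled counts, the summed level was 7015 ± 368 and 8320 ± 627. The choice of scaling therefore sets how large the change of the members is. Their median lay 0.17 above that of all features with TMM, RLE or library size alone, and 0.09 above it without *rrp4-G226D* replicate 3. No member has an intron or overlaps another annotated gene in RefSeq, and every 100-base window of each occurs once in the genome, so reads are not split with a copy. CUTs, SUTs and dubious reading frames have no coordinates there and were not checked for overlap.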

How the data were processed

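RNA-seq counts were analysed for 6 libraries, 3 per genotype, grouped by the sample titles. According to the study's methods, the authors removed rRNA, made stranded paired-end libraries, aligned them with STAR to genome build R64 and used featureCounts (1.6.4 in the submitters' processing notes) to obtain counts of genes, CUTs and SUTs. The strand setting is not given in the sources used here. The deposited counts are whole numbers without normalization. The table deposited by the authors also holds their DESeq2 comparison (mean normalized signal, log2 fold change and standard error, Wald score, p-value and adjusted p-value). From it only the pairing of gene names with identifiers was used.

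Counts were fitted over all 8898 features in edgeR 4.0.16 under R 4.3.3 (quasi-likelihood test, TMM scaling, low counts removed by filterByExpr, a model of genotype alone). Standard errors are the size of the change divided by the square root of F, and 95% intervals use the test's degrees of freedom. DESeq2 1.42.0 was an alternative, as were RLE, library size only, TMM over open reading frames, other filters, a block for replicate number, robust dispersion, fits that each lack a library, and other call rules. Positions and lengths come from RefSeq's R64 annotation (6048 features matched), and promoter windows of 250 bases before and 50 after the start were read with Python 3.11.15.

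Members and lists were chosen with earlier results of these data known. All members are named, and members of other lists past the threshold, except ribosomal protein genes, which are counted. Values in each library are given for members past the threshold, the 5 largest changes in each direction with no overlap, and the highest and lowest level per length. Separate cultures are stated by the study, and its samples carry no other batch label.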

Additional observations from a re-analysis of the deposited data

How the results depend on the processing

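The number of members increased stayed at 4 with DESeq2, RLE, both other filters on low counts, robust dispersion and *HCA4* counted as a member (the last chosen after seeing the data), and was 5 with TMM over open reading frames. With library size only it was 25, beside 2880 of all 7631 features, and the median change was 0.63 over members and 0.46 over all features. TMM over open reading frames gave 1171 increased features. The number of members was 21 at an adjusted p below 0.05 with no minimum fold change, and 0 at 2-fold. The number decreased was 0 throughout, except 3 with no minimum fold change. When each library was left out, the number increased ran from 0 to 5, the number decreased stayed at 0 and the median ran from 0.09 to 0.21, lowest without *rrp4-G226D* replicate 3. The replicate numbers did not pair the libraries (correlations of deviations 0.0241, 0.0730 and −0.0682). With a replicate block 4 members were increased and 0 decreased, the median was 0.18, and of members near 0 *KRE33* turned to −0.0035 and *SOF1* to 0.00029. The number of promoters fell to 26 for PAC as GCGATGAG and to 17 for RRPE with TG before its core, against 3.93% and 3.92% of all promoters.

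With library size only, changes below 0 turned positive for *UTP15* (0.25), *UTP6* (0.31), *UTP13* (0.38), *RRP7* (0.21), *RCL1* (0.37), *EMG1* (0.0589), *UTP11* (0.40), *UTP23* (0.36), *SOF1* (0.45) and *KRR1* (0.32). With TMM over open reading frames, *UTP13* (0.0092), *RCL1* (6.30e-05), *UTP11* (0.0239) and *SOF1* (0.0747) did, and *SOF1* was at 0.0018 with RLE and 0.0372 at a mean count of at least 50. Members near 0 also changed sign with single libraries left out, where *SOF1* ran from −0.0632 to 0.0567, *KRE33* from −0.112 to 0.0699, *UTP9* from −0.0250 to 0.0837, *IMP3* from −0.0178 to 0.0856, *IMP4* from −0.0401 to 0.0378 and *ENP1* from −0.0444 to 0.126. None of these was past 1.5-fold in any of these fits. The cause of these differences was not tested.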
